A study of Homo sapiens with 6 samples.

Results

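GTSF1, a small zinc finger protein of germ cells, and 9 genes of the germline piRNA pathway in which it works were followed in a B-cell lymphoma line kept with or without IL-17A. The 9 partner genes were PIWIL1, PIWIL2, PIWIL4, DDX4, TDRD1, TDRD9, MAEL, MOV10L1 and ASZ1. A probe belonged to a gene when its RefSeq accession mapped to that gene, which gave 12 probes for the 10 genes, of 34127 probes and 19740 named genes on the arrays. GTSF1 was chosen by its detection flags and signals in these same arrays, where it appeared with IL-17A, so its own values are a description and carry no test. The partner genes were chosen for their function.

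PIWI proteins are Argonaute proteins of the germ line that carry small guide RNAs, the piRNAs, and use them to silence transposons. Long precursor transcripts are taken up by a helicase, cut at the surface of mitochondria and trimmed, and Tudor proteins hold the machinery together in perinuclear granules. GTSF1 binds PIWI proteins and promotes their cutting of target RNA, and many genes of the pathway are silent in somatic tissues.

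SU-DHL-2 is an established human diffuse large B-cell lymphoma (DLBCL) cell line. The IL-17A group was kept for 72 h in serum-containing RPMI medium with IL-17A at 200 pg/ml, and the control group for the same time without it, with 3 samples per group and total RNA from each on 1 array of 1 colour (Cy3). IL-17A is a cytokine of Th17 cells, and the question of the experiment was which genes of the lymphoma cells change with it. The labels do not say whether the samples of a group were separate cultures, so p-values measure the spread between these samples, which may be technical. IL-17A replicate 1 lay on the same slide as the 3 controls, and IL-17A replicates 2 and 3 lay on another, as inferred from the scans they shared. Between 23570 and 24077 probes (69.1% to 70.6%) were well above background on each array, and a test was run for the 23945 probes that carried the flag on 3 or more of the 6 arrays. All 7 B-lymphoid markers examined, among them CD79A, CD79B and MS4A1, carried this flag on all 6 arrays, as did all 4 markers of activated B cells and PTPRC. The flag does not separate cell types, since CD14 of 3 monocyte markers, AMH and INHA of 3 Sertoli markers and COL1A1 of 3 stroma markers carried it on all arrays too, and these markers cannot tell SU-DHL-2 from another B-cell line. The summed signal of the B-lymphoid markers was 50290 to 54560 with IL-17A and 49880 to 53940 in control. The sum was 45.4 or less on every array for each of the monocyte, Sertoli and stroma lists. The dimmest B-lymphoid marker was PAX5, with mean signals of 14.2 with IL-17A and 13.16 in control, which the sum does not show. PAX5 lay above INHA (10.71 and 10.87), near COL1A1 (12.88 and 13.23) and below CD14 (32.79 and 34.52). Of 7 genes of germ cells outside the piRNA pathway, 3 (PRM1, ACR and SYCP3) had that flag on all arrays and DAZL on none, and their summed signal was 61.1 to 63.0 with IL-17A and 57.3 to 64.6 in control. The 5 T-cell markers were also flagged on every array, with a summed signal of 184 to 211 with IL-17A and 188 to 215 in control.

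The RefSeq promoter table (GRCh38.p14) held 10 start sites of 8 of the 10 genes, all but PIWIL2 and PIWIL4. The 250 bases before the start are printed for the 3 genes with an entry whose probe carried the flag throughout at least 1 group. They are shown because CpG-rich promoters of germline genes are commonly kept silent by DNA methylation in somatic cells, and the 3 differ in their CpG content. Each is written 5′ to 3′ on the strand of the gene, with every CpG in capitals.
GTSF1, chr12:54473603-54473852, minus strand: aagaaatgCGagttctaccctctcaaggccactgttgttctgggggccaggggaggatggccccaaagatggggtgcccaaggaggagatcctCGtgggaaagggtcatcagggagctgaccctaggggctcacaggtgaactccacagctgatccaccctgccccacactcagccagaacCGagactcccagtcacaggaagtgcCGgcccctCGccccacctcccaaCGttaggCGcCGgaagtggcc
MOV10L1, chr22:50089756-50090005, plus strand: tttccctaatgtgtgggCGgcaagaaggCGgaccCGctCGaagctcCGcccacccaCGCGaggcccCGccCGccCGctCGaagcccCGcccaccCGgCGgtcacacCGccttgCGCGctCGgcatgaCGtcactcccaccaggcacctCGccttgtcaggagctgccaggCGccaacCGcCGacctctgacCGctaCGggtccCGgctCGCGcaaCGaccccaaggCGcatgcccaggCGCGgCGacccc
MAEL, first start, chr1:166975332-166975581, plus strand: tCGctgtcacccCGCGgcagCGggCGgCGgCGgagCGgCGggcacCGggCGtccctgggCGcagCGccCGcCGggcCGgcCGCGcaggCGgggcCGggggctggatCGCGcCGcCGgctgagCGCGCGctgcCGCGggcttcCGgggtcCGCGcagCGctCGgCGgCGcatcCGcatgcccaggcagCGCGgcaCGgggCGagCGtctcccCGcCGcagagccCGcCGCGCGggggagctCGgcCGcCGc
MAEL, second start, chr1:166989030-166989279, plus strand: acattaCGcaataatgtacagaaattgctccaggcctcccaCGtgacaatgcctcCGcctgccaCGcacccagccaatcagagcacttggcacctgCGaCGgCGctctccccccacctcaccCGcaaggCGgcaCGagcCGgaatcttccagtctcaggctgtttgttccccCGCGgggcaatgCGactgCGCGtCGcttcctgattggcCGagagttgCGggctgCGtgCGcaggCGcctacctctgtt

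The GTSF1 sequence held 8 CpGs, the MOV10L1 sequence 33, and the sequences before the MAEL starts 51 and 22. Over all 35114 promoters in the table the median was 11, with quartiles of 3 and 23, so that GTSF1 lay below the median (43.7% of promoters had fewer CpGs) and MOV10L1 and both MAEL starts lay above it. Its ratio of observed to expected CpG was 0.329, against a median of 0.558. Among the other members the count ran from 0 before DDX4 to 35 before TDRD9. Methylation was not measured in this experiment. The letters bound by MYB proteins (TAACNG or CAACNG, either strand) occurred 1 time before GTSF1 and 1 time before MOV10L1, and in 39.3% of all promoters. The E-box CACGTG occurred 2 times before each TDRD1 start, in windows that overlap and share both matches. It also occurred 1 time before the second MAEL start, and in 6.35% of all promoters. The E2F letters TTCCCGC (either strand) were found, among the members, before ASZ1 alone, and in 5.52% of all promoters. The E-box and the E2F letters each hold a CpG, so their matches overlap with the CpG count.

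GTSF1 gave a weak signal that was present on every IL-17A array and on no control array. Its probe (A_33_P3388192, 1 spot per array) had processed signals of 6.35, 5.79 and 6.64 on IL-17A arrays 1 to 3, and of 0.940, 0.938 and 0.967 on control arrays 1 to 3. The processed signal is the value that the extraction software gives a spot after background subtraction and further steps, in arbitrary units. On the control arrays the GTSF1 spot was not positive and significant in the flags of the software. Its background-subtracted signals there were 0.572, -0.683 and -0.0989, which the processed signals do not follow. The closeness of the 3 control values is therefore no measure of spread. The groups did not overlap. All 3 IL-17A spots and none of the control spots were flagged as well above background, and this pattern was what chose the gene. Among all 34127 probes, 41 (0.120%) were well above background on the 3 IL-17A arrays and on no control array, and 70 (0.205%) had the opposite pattern, so that GTSF1 shared its pattern with 40 other probes.

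**Figure D1:**
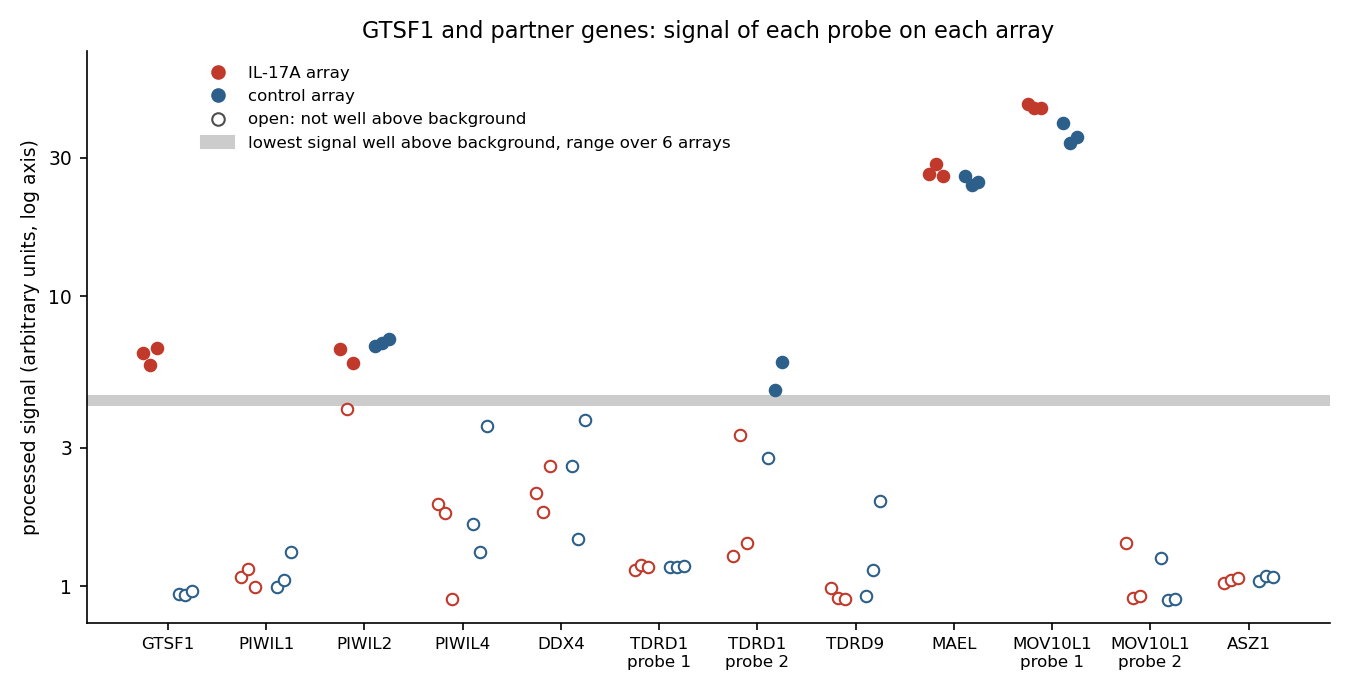
Processed signal (arbitrary units, log axis) of the 12 probes of GTSF1 and its partner genes on 3 IL-17A arrays (red) and 3 control arrays (blue). Open points were not well above background, and the grey band is the lowest signal with that flag, 4.18 to 4.56 over the arrays. GTSF1 lies above the band on the IL-17A arrays alone, MAEL and 1 probe of MOV10L1 lie above it on all arrays, and most other probes lie under it.

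On the scale of the processed signals, the size of the GTSF1 difference can be given only as a lower bound. The dimmest spots that still carried the flag had signals of 4.18 to 4.56, depending on the array, so the IL-17A signals lay just over this limit. On the quantile normalized log2 scale the mean was 2.69 ± 0.12 (SD, n = 3) with IL-17A and 0.00 in control, where every array sat at the floor of 1. With the control arrays raised to their lowest signal well above background, the IL-17A mean of GTSF1 was at least 1.62-fold higher than the control mean. Over the 41 probes with the same pattern the median bound was 1.62-fold and the highest 3.08-fold, and GTSF1 ranked 21 by its bound. The measured log2 difference of 2.69 depends on where the floor is set and is no bound. It was 0.474 in the authors' own normalized table, where the 3 control values stood at the lowest value of their arrays (2.33). After background correction by normexp (offset 50) it was 0.083. Both values lie under the bound (log2 0.70), which holds for the quantile normalized processed signals alone. The bound also rests on IL-17A signals that were chosen for their flags.

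The scanner values show how small the difference in brightness was. The median pixel brightness of the GTSF1 spot was 22.5, 24.0 and 24.0 on the IL-17A arrays and 17.0, 18.0 and 19.0 on the control arrays, on a linear scale. The local background around the same spot was 13.0, 14.5 and 12 with IL-17A and 12.5, 12 and 11.0 in control. The spots did not overlap between the groups, and their local backgrounds did. The brightness is that of the spots that chose the gene, so it describes them and is no separate support. Less local background, the spot stood at 9.5, 9.5 and 12 with IL-17A and at 4.5, 6.0 and 8.0 in control. These values are no measure of transcript, since spots without a flag also stood above their local background. The ASZ1 spot stood at 3.5, 5.0 and 2.0 with IL-17A and at 5.5, 4.0 and 5.0 in control. The PIWIL2 spot on IL-17A array 3 stood at 7.0 and was well above background, and the GTSF1 spot on control array 3 at 8.0 was not.

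**Figure D2:**
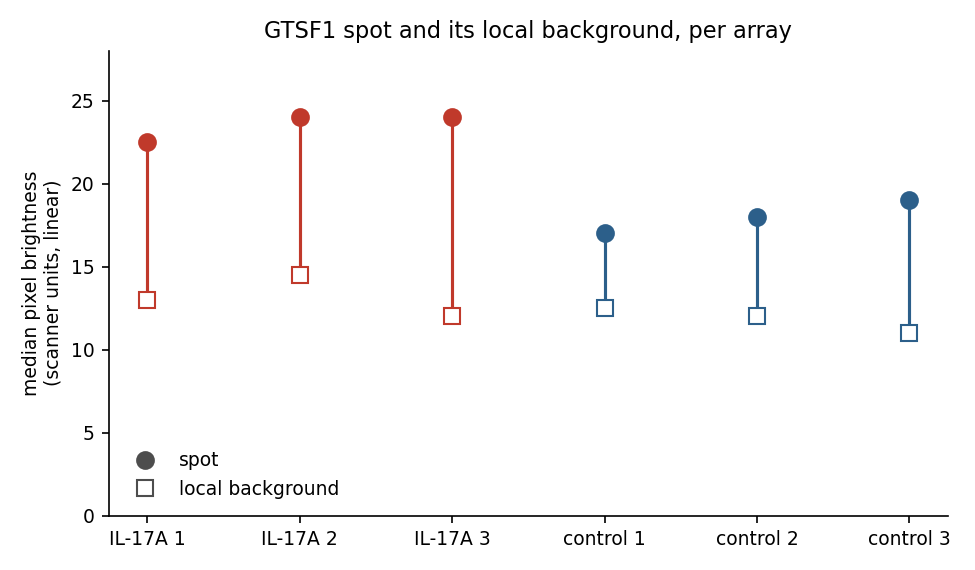
Median pixel brightness (scanner units, linear) of the GTSF1 spot (circles) and of its local background (squares) on each of the 3 IL-17A arrays (red) and 3 control arrays (blue). The IL-17A spots lie at 22.5 to 24.0 and the control spots at 17.0 to 19.0, over local backgrounds of 11.0 to 14.5.

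Negative control spots on the same arrays give the background of such dim signals. Each array held 153 of them, and the median of their background-subtracted signals was -1.68 to -1.16. The background-subtracted signal of GTSF1 was 6.32, 6.25 and 7.09 with IL-17A, and 1, 1 and 0 of the negative control spots reached it on these arrays. In control it was 0.572, -0.683 and -0.0989, and 11, 32 and 14 negative control spots reached it. The GTSF1 spot thus lay near the top of the negative control spots with IL-17A, and among them in control. These ranks go with the flags that chose the gene, so they describe the spot and are no separate support.

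Slide and treatment overlapped in part. On the slide that held both groups, the single IL-17A array had a GTSF1 signal of 6.35 against 0.938 to 0.967 on the 3 controls. The control spots were not above background, so their values are no measured levels. The 2 IL-17A arrays of the other slide had 5.79 and 6.64. The part of the slide in the difference was not tested. In RNA from bulk cells, fewer cells with a transcript and less of it per cell cannot be told apart.

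Among the PIWI proteins, PIWIL2 alone was measured above background. PIWIL2, which loads piRNAs early in male germ cell development, had processed signals of 6.60, 4.08 and 5.88 with IL-17A and 6.71, 6.88 and 7.10 in control. All 3 IL-17A signals were under all 3 controls before normalization, and IL-17A replicate 2 was not well above background. After normalization the groups overlapped, with a log2 difference of -0.26 (SE 0.19, 95% confidence interval -0.72 to 0.20, limma, adjusted p = 0.379). The interval runs from 0.607-fold to 1.15-fold, so it includes decreases beyond the 1.5-fold threshold and no increase of that size. On the slide shared by both groups the difference was 0.02, from 1 IL-17A array against 3 controls. With 1 array left out it was -0.40 to -0.06, and the value nearest to 0 was that without IL-17A replicate 2, whose spot was not well above background.

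PIWIL1, the PIWI protein of the pachytene stage, had 10 spots per array and mean signals of 0.997 to 1.15 with IL-17A and 0.997 to 1.31 in control. None of its 60 spots was well above background, and 9 were positive and significant. PIWIL4, the PIWI protein that guides DNA methylation in the nucleus, had signals of 1.92, 1.80 and 0.906 with IL-17A and 1.64, 1.31 and 3.56 in control, also never well above background. The groups overlapped for both genes, and neither was tested.

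The processing helicase and the granule protein were the partner genes with a clear signal. MOV10L1, the helicase that binds piRNA precursors, had processed signals of 45.9, 44.5 and 44.6 with IL-17A and 39.6, 33.7 and 35.3 in control at the probe A_23_P143774. Every IL-17A array lay above every control array. The log2 difference was 0.32 (SE 0.04, 95% confidence interval 0.22 to 0.42), or 1.25-fold (limma, adjusted p = 0.0313). The change was under the 1.5-fold threshold, and 4.43% of all tested probes were higher with IL-17A at an adjusted p under 0.05. With any 1 array left out the log2 difference was 0.30 to 0.34 and the adjusted p 0.0479 to 0.135, and 5 of these 6 values were over 0.05, all but the one without control replicate 3. On the slide with both groups the difference was 0.34, from 1 IL-17A array, and with slide as a block the adjusted p was 0.0954. A further probe of MOV10L1 (A_24_P231010) was well above background on no array, with signals of 0.899 to 1.42 over the 6 arrays. It gave no difference to set beside the first.

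MAEL, a protein of the perinuclear granules needed for transposon silencing, was measured by 10 spots per array, all well above background. Their means were 26.4, 28.5 and 25.9 with IL-17A and 25.8, 24.2 and 24.8 in control. The groups did not overlap, but the closest arrays stood at 25.85 with IL-17A and 25.83 in control before normalization. After it, their closest log2 values were 4.725 and 4.66. The SD between single spots of 1 array was 1.01 to 2.93, which is not the spread of a mean of 10 spots. The log2 difference was 0.13 (SE 0.05, 95% confidence interval 0.02 to 0.24), or 1.09-fold (limma, adjusted p = 0.127). The interval ends at 1.18-fold, under the 1.5-fold threshold.

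DDX4, the VASA helicase that marks germ cells, had signals of 2.11, 1.81 and 2.60 with IL-17A and 2.60, 1.46 and 3.73 in control. These were positive and significant in the flags of the software but not well above background on any array, and the groups overlapped. TDRD9, a Tudor protein with a helicase domain, and ASZ1, a scaffold on mitochondria, were well above background on no array. Their signals were 0.905 to 1.97 and 1.03 to 1.08 over the 6 arrays. TDRD9 was positive and significant on 2 control arrays and 0 IL-17A arrays, and ASZ1 on 0 arrays of either group.

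TDRD1, the Tudor scaffold that binds PIWI proteins, differed in its flags between arrays. Its probe A_33_P3373329 had signals of 1.27, 3.32 and 1.42 with IL-17A and of 2.77, 4.76 and 5.94 in control. It was well above background on control arrays 2 and 3 and on no IL-17A array, and the groups overlapped between 2.77 and 3.32. With the flag on 2 arrays it was not tested, and a further TDRD1 probe (A_33_P3232995) stayed at 1.14 to 1.18 on all arrays. The spots nearest to the limit of the flag were the TDRD1 spot on control array 2 (4.76), which had it, and the PIWIL2 spot on IL-17A array 2 (4.08), which did not.

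No partner gene had the flags of GTSF1. Over all 34127 probes only 41 (0.120%) had them, so their absence from 11 probes says little about the partner genes. Of the 11 partner probes, 7 were well above background on no array, which left 5 of the 9 genes without a signal by this flag. Over all probes, 69.1% to 70.6% carried the flag on each array, and the share with it on no array was not counted. A probe was tested for 3 of the 9 partner genes, against 14747 of all 19740 named genes. The number of partner probes well above background was 3, 2 and 3 on the IL-17A arrays and 3, 4 and 4 on the control arrays, and these counts are a description, since an exact permutation test of 3 arrays against 3 cannot give a p below 0.1. Of the 3 partner probes tested, 0 passed a fold change of at least 1.5 with an unadjusted p under 0.05 by limma, where 522 probes (2.18%) passed over the whole table, and 0 by the two-sample test of the study's methods. With an adjusted p under 0.05 in addition, 197 probes (0.823%) passed over the table and again 0 partner probes. An unadjusted p under 0.05 was reached by 2 of the 3 (MOV10L1 and MAEL), against 31.3% of all tested probes (17.1% higher and 14.2% lower with IL-17A), and the same 2 did not overlap between groups, against 39.0%. A count of 3 probes is too small to be read against these shares.

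Other genes of the piRNA pathway were followed through a list of 22, of which 21 were on the arrays and 12 were tested, while 6 had no probe above background. Of all 19740 named genes, 14747 were tested. None passed both thresholds by limma, against 2.18% of all tested probes. An unadjusted p under 0.05 was reached by 3 (1 higher and 2 lower with IL-17A), where the share over the table was 31.3% (17.1% higher, 14.2% lower), and the median log2 difference was 0.068, against 0.007 over all tested probes. GPAT2, a mitochondrial protein needed for piRNA production, had signals of 234, 231 and 204 with IL-17A and 309.5, 283 and 266 in control at its brightest probe. All IL-17A arrays lay under all controls, with a log2 difference of -0.39 (SE 0.06, limma, adjusted p = 0.0327). The other 2 GPAT2 probes were dimmer and stood at log2 differences of 0.01 and 0.74 (adjusted p = 0.979 and 0.127), so the probes of the gene disagreed. MYBL1, the transcription factor that drives pachytene piRNA genes, had a log2 difference of -0.15 (SE 0.04, adjusted p = 0.0636), and TDRD6 one of 0.18 (SE 0.06, adjusted p = 0.0954). The other MYBL1 probe stood at -0.045 (limma, adjusted p = 0.564), and the other TDRD6 probe was not tested.

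**Figure D3:**
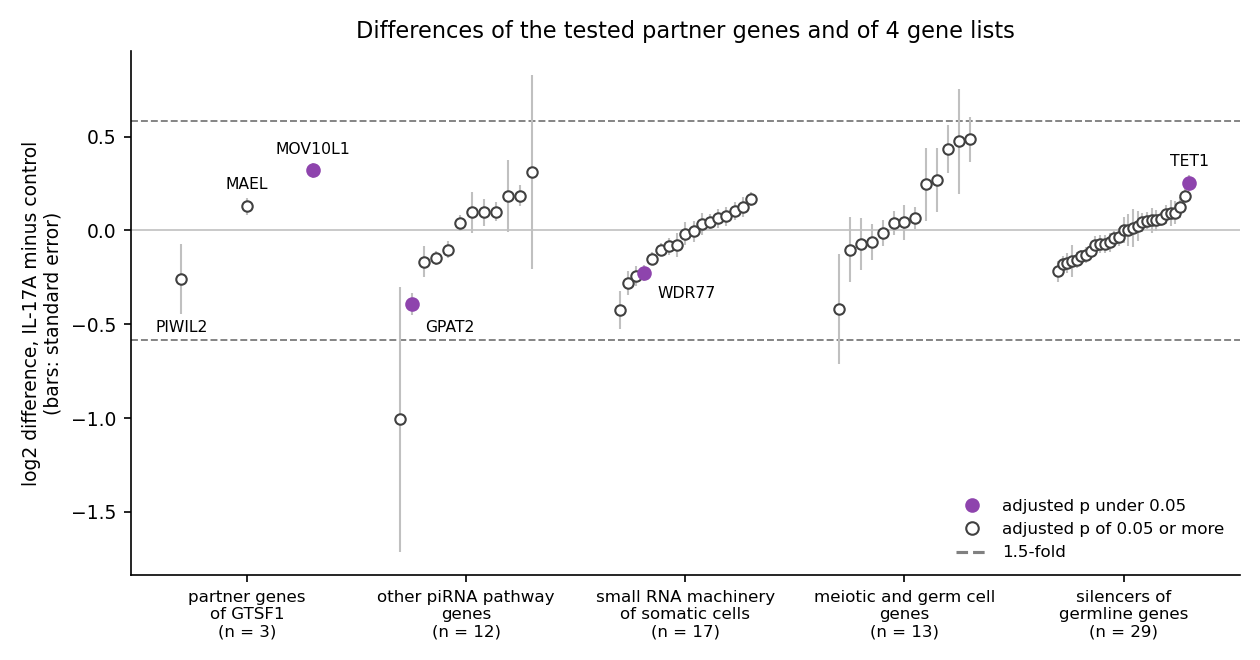
Log2 difference (IL-17A minus control, bars are standard errors) of the 3 tested partner genes and of the tested genes of 4 lists, 1 probe per gene, 3 arrays per group. Filled points have an adjusted p under 0.05, the dashed lines mark 1.5-fold, and no gene passes both, since the point beyond the line (log2 difference -1.01, MORC1) has an adjusted p of 0.374.

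All 17 genes of the machinery that makes and uses small RNAs in somatic cells were tested. None passed both thresholds by limma, against 2.18% of all tested probes. An unadjusted p under 0.05 was reached by 7 (1 higher, 6 lower), against 31.3% of all tested probes (17.1% higher, 14.2% lower), and the median log2 difference was -0.017, against 0.007. WDR77, the partner of the PRMT5 methyltransferase, had a log2 difference of -0.22 (SE 0.04, adjusted p = 0.0437), with signals of 444 to 462 against 488 to 566. TARBP2 and DGCR8, RNA-binding partners of the microRNA-processing enzymes, stood at -0.24 and -0.28 (adjusted p = 0.0531 and 0.0539).

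Of 26 meiotic and germ cell genes, 13 were tested, against 14747 of all 19740 named genes, and 11 had no probe above background. None passed both thresholds by limma, against 2.18% of all tested probes. An unadjusted p under 0.05 was reached by 2, both higher with IL-17A, against 31.3% of all tested probes (17.1% higher, 14.2% lower), and the median log2 difference was 0.043, against 0.007. The lowest p belonged to SYCP3, a protein of the meiotic chromosome axis, with signals of 12.1, 9.38 and 12 with IL-17A and 8.82, 7.53 and 8.62 in control. The groups did not overlap, and the log2 difference was 0.49 (SE 0.12, adjusted p = 0.0644). DPPA3 and LIN28A, genes of germ and pluripotent cells, stood at 0.43 and 0.48 (adjusted p = 0.0892 and 0.297).

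A list of 30 genes that control the silencing of germline genes in somatic cells, through DNA methylation and its removal, histone methylation and Polycomb-type complexes, had 29 genes on the arrays, all tested. None passed both thresholds by limma, against 2.18% of all tested probes. An unadjusted p under 0.05 was reached by 9 (2 higher, 7 lower), against 31.3% of all tested probes (17.1% higher, 14.2% lower), and the median log2 difference was 0.002, against 0.007. TET1, which oxidises methylated cytosine, had signals of 94.4, 89.4 and 90.2 with IL-17A and 81.7, 73.3 and 71.7 in control, and a log2 difference of 0.25 (SE 0.04, adjusted p = 0.0355). Its second probe pointed the other way (-0.18, adjusted p = 0.103). SETDB1 (0.18, adjusted p = 0.0527) and UHRF1 (-0.18, adjusted p = 0.0604), which maintain histone and DNA methylation, did not pass. The other SETDB1 probes were also higher with IL-17A (0.29 and 0.18, limma, adjusted p = 0.0731 and 0.0803). The other UHRF1 probe stood at -0.06 (limma, adjusted p = 0.681). The adjusted p of GPAT2, WDR77 and TET1 stayed under 0.05 in 9, 7 and 7 of 17 other settings.

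The 5 named genes whose normalized signal followed the GTSF1 probe most closely over the 6 arrays were FKBP14, CFLAR, RASSF4, EEF1A2 and HK2, with Pearson correlations of 0.997 to 0.998. The 6 arrays fall into 2 groups, so these values describe a separation between groups and little else. EEF1A2, an elongation factor of muscle and neurons, had signals of 12, 8.56 and 9.39 with IL-17A and 0.972, 0.962 and 0.981 in control, and among the 5 genes it shared the flags of GTSF1. The other 4 carried the flag on all arrays and stood at log2 differences of 0.17 (CFLAR) to 0.53 (HK2).

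On chromosome 12 the RefSeq annotation places GTSF1 between ITGA5 and NCKAP1L. NCKAP1L, a regulator of actin in blood cells, had mean signals of 262 with IL-17A and 216 in control (log2 difference 0.25, SE 0.08, limma, adjusted p = 0.11), and ITGA5 had 10.1 and 12.6 (log2 difference -0.22, SE 0.16, adjusted p = 0.404). Of the 3 genes on either side of GTSF1, 5 were tested. Of these, 1 had an adjusted p under 0.05 (ZNF385A, log2 difference -0.29, SE 0.05, limma, adjusted p = 0.0346). Over all 23945 tested probes, 758 were lower and 1060 higher with IL-17A at an adjusted p under 0.05. A count of 5 genes is too small to be read against these numbers.

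**Figure D4:**
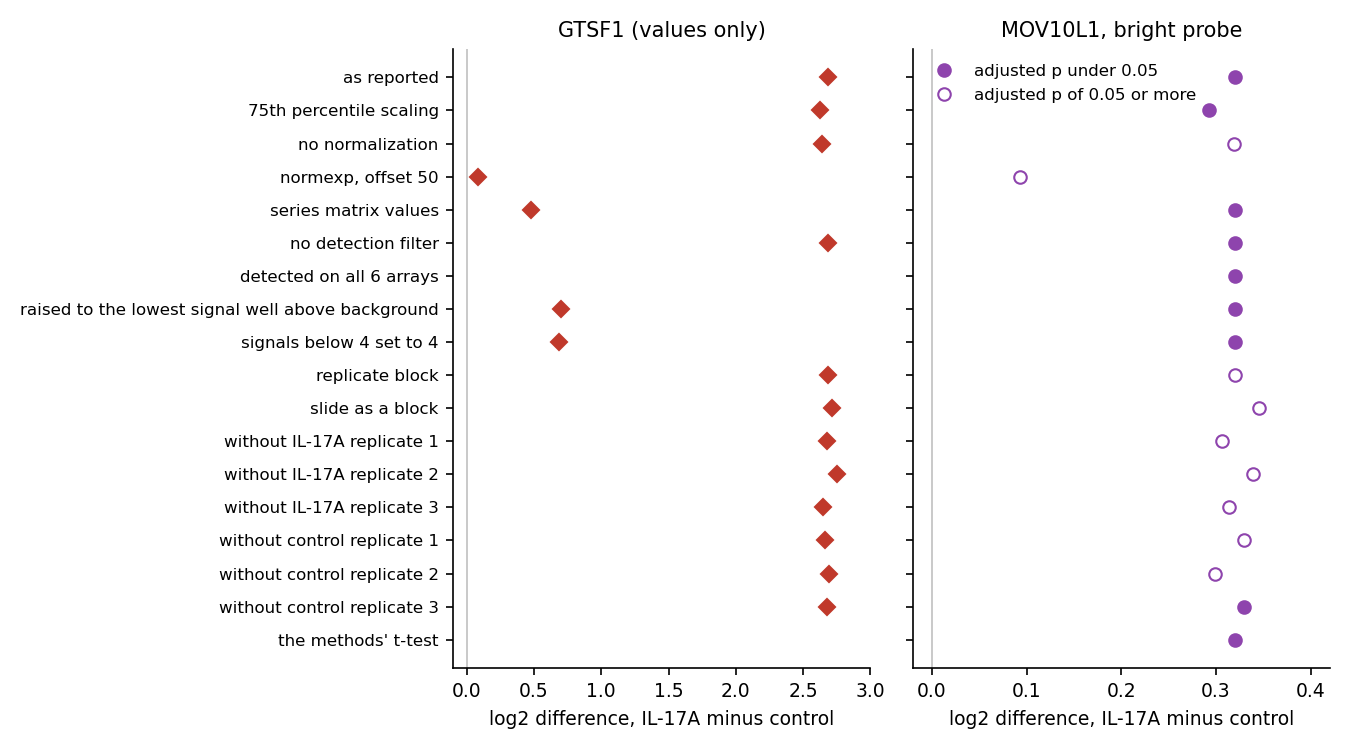
Log2 difference (IL-17A minus control) of GTSF1 (left, values without a test) and of the bright MOV10L1 probe (right) as reported and under each alternative, 3 arrays per group unless 1 is left out. GTSF1 ranges from 0.083 under normexp to 2.75 and gives no value when detection on all 6 arrays is required, and MOV10L1 keeps its sign while its adjusted p is under 0.05 (filled points) in 8 of the 17 alternatives.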

How the data were processed

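Total RNA of 3 IL-17A and 3 control samples was amplified, labeled with Cy3 and hybridized by the authors to Whole Human Genome arrays. Per the file headers and labels, the spots were read with Agilent Feature Extraction (11.0.1.1). The deposited scanner files give an intensity for each of 43118 spots, background-subtracted but not normalized between arrays, besides pixel brightness and detection flags. Another table deposited by the authors holds quantile normalized log2 values (median 4.95 on each array). Between 9986 and 10417 probes per array stood at its lowest value, and above that value it correlated with the log2 intensities at 0.9996 to 0.9998 across probes. Its offset was not given in the sources used here.

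Control spots and 4 to 25 non-uniform spots per array were left out and no spot was saturated. Intensities below 1 were set to 1, replicate spots were averaged as log2 values and the arrays were quantile normalized. Where a probe had several spots, a flag counted when at least 0.5 of them carried it. Probes well above background (and positive and significant) on at least 3 of 6 arrays were tested with limma 3.58.1 (R 4.3.3), two-sided, with Benjamini-Hochberg adjustment over all of them. The thresholds were a fold change of 1.5 and p under 0.05, after the study's methods. The procedure was tested on simulated data. The number of arrays limits the precision.

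Probes were named through their RefSeq accession. The members and lists were chosen with earlier results of these data known. Besides all member probes, the text names per list the genes past both thresholds, or else the 3 with the lowest p, each at its brightest tested probe, the 5 genes most correlated with GTSF1, and identity markers. One further marker is not reported here. MORC1 and the neighbours of GTSF1 were chosen after their values were seen. Alternatives included 75th percentile scaling, no normalization, normexp with an offset of 50, the authors' table, other detection filters and floors, a replicate block, slide as a block, the methods' t-test, a fold change of 2, and each array left out in turn. Replicate numbers were not treated as pairs in the main fit.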

Additional observations from a re-analysis of the deposited data

How the results depend on the processing

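The log2 difference of GTSF1, whose direction is fixed by how the gene was chosen, was 0.474 in the authors' table, 0.083 under normexp, 0.70 with signals raised to the lowest one well above background and 0.685 with signals below 4 set to 4, and it was 2.65 to 2.75 with 1 array left out, with the controls at the floor throughout. It gave no value where detection on all 6 arrays was required. The partner probes past both thresholds stayed at 0 in all alternatives (0 to 0 with 1 array left out). Member probes above background numbered 5 (9 by the flag positive and significant). MAEL kept its direction and stayed above an adjusted p of 0.05 in all 17 alternatives (log2 difference 0.03 to 0.15), PIWIL2 reversed to 0.024 with slide as a block, which rests on 1 IL-17A array, and MOV10L1 kept its direction but passed 0.05 in 8 of 17, with adjusted p of 0.129 without normalization, 0.071 under normexp and 0.0954 with slide as a block.

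Over the whole table, the 522 probes past both thresholds (241 higher, 281 lower) became 150 higher and 422 lower under 75th percentile scaling and 186 higher and 426 lower without normalization. They numbered 15 under normexp, 978 without a detection filter, 299 with detection on all 6 arrays, 82 at a fold change of 2, and 411 to 656 with 1 array left out. The 197 that also passed adjustment became 45 without normalization, 7 under normexp, 48 with slide as a block, 60 by the methods' t-test, 42 at a fold change of 2, and 2 to 174 with 1 array left out. Leaving out any array but control replicate 3 took this count to 56 or fewer. With a replicate block 4 probes passed adjustment, 527 passed both thresholds, GTSF1 stood at 2.69 and MOV10L1 at 0.32 with an adjusted p of 0.124. Samples of 1 number correlated at -0.087 to -0.0022 in their deviations from the group means, and samples of unlike numbers at -0.048 to 0.078. These values show no sign that the numbers pair the samples, but 3 arrays per group cannot exclude it. The cause of these shifts was not tested. Signal over background limits every member but MAEL and the bright MOV10L1 probe.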
